A study of Rattus norvegicus with 6 samples.

Results

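The conventional myosin heavy chains were followed in the vestibular sensory epithelium of the rat, with Myh4 at the centre. The set held 10 genes chosen by symbol: the sarcomeric chains Myh1, Myh2, Myh3, Myh4, Myh6, Myh7 and Myh8, and the nonmuscle chains Myh9, Myh10 and Myh14. Of these 10, 8 had a row among the 32883 genes of the count table, and 4 (Myh4, Myh6, Myh10 and Myh14) had enough counts to be among the 14352 genes tested. Myh1 and Myh2 had no row in the table used here, under those symbols or under their RefSeq synonyms. Myh4 drew attention because of its change between these same libraries, so the values of the 10 genes are given as a description, without a test.

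The libraries came from adult male Long-Evans rats, 3 in each group. Control rats drank plain water, and IDPN-4wk rats had 3,3'-iminodipropionitrile (IDPN), a nitrile toxic to inner ear hair cells, at 20 mM in what they drank for 4 weeks. Each library held the pooled RNA of the 2 utricles and 6 cristae of a single rat, so the samples of a group were separate animals, and the whole dissected tissue, not a sorted cell type, was measured. In the labels the animal codes of the 3 IDPN-4wk rats share a prefix that no Control rat has, so whatever that prefix marks cannot be told apart from the exposure. Library totals ran from 13358678 to 18561991 counts. All 10 hair cell markers (such as Myo7a, a hair cell myosin, and Otof, needed for transmitter release) and all 9 supporting cell markers (such as Otog, of the gelatinous membranes over the hair cells) were detected, as the tissue label asks. Levels are given as CPM, counts scaled for library depth with TMM factors, and a gene was called changed at an adjusted p under 0.05 and a fold change over 1.5 in the edgeR quasi-likelihood fit over all tested genes. The summed hair cell markers stood at 2241 to 2368 CPM in Control and 1177 to 1499 in IDPN-4wk, and 6 of the 10 fell (6.62% of all tested genes did): Slc17a8, Calb2, Otof, Pvalb, Ocm2 and Myo7a, with log2-Fold changes of -2.56 to -0.64. The summed supporting cell markers stood at 9604 to 10606 CPM in Control and 5269 to 6446 in IDPN-4wk, and 3 of the 9 fell: Otog, Otogl and Gjb6, with log2-Fold changes of -0.97 to -0.86. Otog made up much of this sum, with 6262 CPM in Control and 3199 in IDPN-4wk on average. Not called were Gjb2, Sox2, Tecta and Jag1, at -0.34 to -0.042, and Sox9 and Hes1, at 0.24 and 0.36. In such bulk tissue, fewer cells of a type and less RNA per cell cannot be told apart.

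A conventional, or class II, myosin is a pair of heavy chains with motor heads and a long coiled tail, joined by essential and regulatory light chains. The tails assemble into filaments that pull on actin. In striated muscle the filaments are the thick filaments of the sarcomere, and the heavy chain sets the speed of the fibre: Myh4 encodes the chain of fast type IIb fibres, Myh1 that of IIx and Myh2 that of IIa fibres, Myh3 and Myh8 the embryonic and perinatal chains, Myh6 and Myh7 the alpha and beta chains of the heart, the latter also of slow fibres. Myh9, Myh10 and Myh14 encode nonmuscle myosins IIA, IIB and IIC, which drive contraction of the cell cortex and of the actin belts at cell junctions in most tissues, sensory epithelia included.

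Myh3, Myh2, Myh1, Myh4, Myh8 and Myh13 lie side by side in that order on rat chromosome 10 and are close copies of each other. Where their regulatory sequences resemble each other is shown by the stretch upstream of Myh4 and by the matching parts of Myh1 and Myh2, the genes without a row. Sequences are from RefSeq on the build GRCr8, + strand, and run 5′ to 3′. The 250 bases before the annotated start of Myh4 lie at chr10:52421898-52422147, and the parts shown for Myh1 and Myh2 lie at chr10:52384706-52384805 and chr10:52355529-52355628. Capitals mark a run of 20 bases that the 3 promoters share without a mismatch.
Myh4: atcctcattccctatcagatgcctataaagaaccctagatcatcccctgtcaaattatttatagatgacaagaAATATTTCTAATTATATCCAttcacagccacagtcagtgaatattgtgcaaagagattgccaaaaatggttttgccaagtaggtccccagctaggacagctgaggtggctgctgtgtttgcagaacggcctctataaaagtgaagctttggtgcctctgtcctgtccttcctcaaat
Myh1: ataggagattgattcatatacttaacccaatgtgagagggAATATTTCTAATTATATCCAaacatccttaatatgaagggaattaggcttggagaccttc
Myh2: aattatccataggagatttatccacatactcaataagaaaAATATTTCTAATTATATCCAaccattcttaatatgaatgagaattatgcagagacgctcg

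The shared run began 177 bases before the start of Myh4, 166 before that of Myh1 and 170 before that of Myh2. It was found in 5 of 33469 RefSeq promoter windows, each of 250 bases before and 50 after a start: those of Myh4, Myh1 and Myh2 and the other two of LOC102555216, an RNA gene annotated beside Myh4 in the same cluster. With Myh3 the Myh4 window shared at most 11 bases in a row, and with Myh8 at most 9. Read on both strands, the Myh4 window held CANNTG, the letters bound by myogenic helix-loop-helix factors, 3 times, at 235 and 81 bases before the start and 28 bases into the transcript; 72.1% of all windows hold it. TATAAA, the TATA box, stood 227, 193 and 45 bases before the Myh4 start and is in 14.2% of windows. The MEF2 motif stood 196 bases before the start, overlapping the TATAAA at 193, and the CArG box, the site letters of serum response factor, stood 118 bases before it; they are in 3.29% and 1.64% of all windows. The Myh1 window held 1 MEF2 match and no CArG box, and those of Myh2, Myh3 and Myh8 held neither. These are letter matches only.

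Myh4 (ENSRNOG00000049695) was higher in all 3 exposed rats than in any Control rat, by 7.33-fold between the group means. It was detected in Control epithelium too. The other sarcomeric chains were at or near the detection limit or overlapped between the groups, and the nonmuscle chains Myh10 and Myh14 differed by less than their standard errors. Of the 4 genes tested, Myh4 alone passed both thresholds. Over all tested genes, 9.71% passed in either direction, 3.09% as higher and 6.62% as lower in IDPN-4wk. Of the 4, only Myh4 had groups without overlap, as 37.8% of all tested genes did. Nothing is read from these counts, which the choice of the set fixed.

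In raw counts, Myh4 had 165, 96 and 91 in the Control libraries and 564, 1393 and 963 in the IDPN-4wk libraries. Scaled to CPM, these were 10.7, 6.71 and 6.44 against 40.5, 71.9 and 62.0. The lowest exposed rat thus stood well above the highest Control rat, and all 6 libraries were far over the floor of 3 counts, which equals 0.155 to 0.216 CPM. The means were 7.93 ± 2.36 CPM (SD, n = 3) in Control and 58.1 ± 16.0 CPM (SD, n = 3) in IDPN-4wk. The fitted log2-Fold change was 2.87 with a standard error of 0.24. By size of that change, Myh4 ranked 11 among the 444 genes called higher. Leaving out each library in turn gave log2-Fold changes of 2.68 to 3.15, the lowest without IDPN-4wk 2 and the highest without Control 1.

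**Figure D1:**
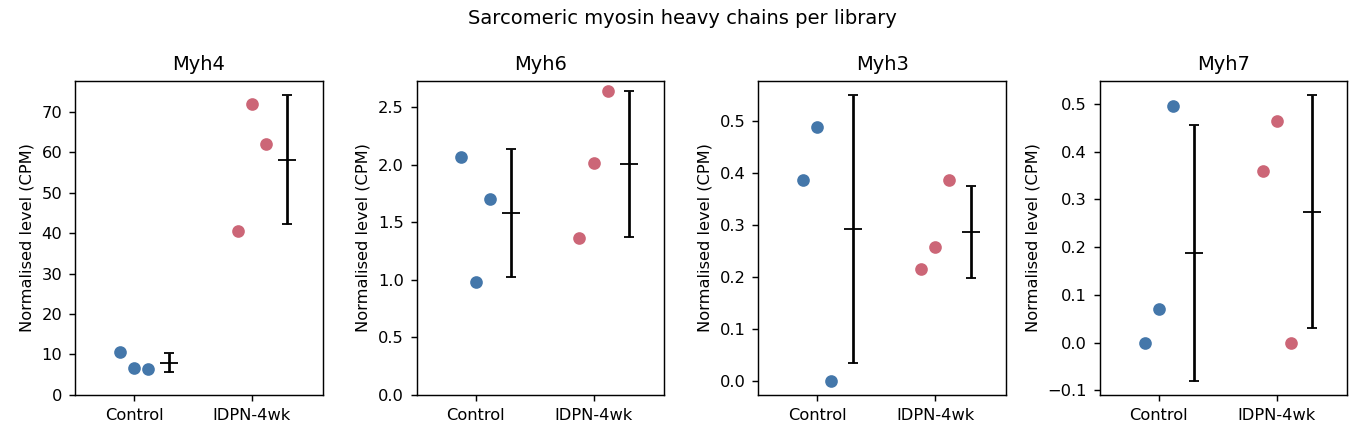
Levels of the sarcomeric myosin heavy chains in each library, in CPM, with an axis of its own for each gene; points are single rats, and the line and bar beside them are the mean and SD of the group (Myh8, at 0, is not drawn). Myh4 stands at 6.44 to 10.7 CPM in Control and 40.5 to 71.9 in IDPN-4wk, while Myh6 reaches at most 2.64 CPM and Myh3 and Myh7 stay lower, with overlapping groups.

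Myh6 (ENSRNOG00000025757), the alpha chain of heart muscle, was the other sarcomeric chain with enough counts. It had 2.07, 0.978 and 1.70 CPM in Control and 1.37, 2.01 and 2.64 in IDPN-4wk. The groups overlapped, with means of 1.58 ± 0.553 and 2.01 ± 0.637 CPM (SD, n = 3 each) and a log2-Fold change of 0.34 with a standard error of 0.40.

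Myh3, Myh7 and Myh8 did not have enough counts to be tested. The embryonic chain Myh3 (ENSRNOG00000046276) had 6, 7 and 0 counts in Control and 3, 5 and 6 in IDPN-4wk. Myh7 (ENSRNOG00000016983), the slow and cardiac beta chain, had 0, 1 and 7 counts in Control and 5, 9 and 0 in IDPN-4wk. Neither row separated the groups, and each had a library without a count on at least 1 side. The perinatal chain Myh8 (ENSRNOG00000050042), the next gene after Myh4 in the cluster, had 0 counts in all 6 libraries, which allows a level of up to 0.216 CPM in the shallowest library; this limit covers counting error only.

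Because Myh1 and Myh2 had no row, a read of theirs could have been assigned to Myh4 or dropped. The sum over the 5 sarcomeric rows cannot show which. It covers only reads shared among those 5 rows. This sum was 13.1, 8.25 and 8.63 in Control and 42.5, 74.6 and 65.0 CPM in IDPN-4wk. The group means, 10.0 ± 2.70 and 60.7 ± 16.5 CPM (SD, n = 3 each), differed 6.07-fold, and the groups did not overlap. Fitted as a single row, the sum had a log2-Fold change of 2.60 with a standard error of 0.23. Myh4 supplied 74.6% to 81.4% of the summed counts in Control and 95.3% to 96.3% in IDPN-4wk. Without Myh4 the sum was 2.06 ± 0.472 in Control and 2.57 ± 0.561 CPM in IDPN-4wk (SD, n = 3 each), with overlapping libraries (1.54 to 2.45 against 1.94 to 3.03). For the 7 members with a count, no other row repeated those counts in every library.

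The partners of the heavy chain in a fast muscle fibre were unevenly represented, some at or near 0 and others, such as Mybpc2 and Tnnc2, clearly present. None of the 6 sarcomeric light chains reached 1 CPM in any library, and none could be tested. Myl1, the fast essential light chain, and Myl2 and Myl7, cardiac regulatory light chains, had no count at all. Myl4, the atrial essential light chain, was at 0.367 and 0.346 CPM on average. Mylpf, the fast regulatory light chain that pairs with Myh4 in muscle, had 4, 6 and 4 counts in Control and 7, 5 and 6 in IDPN-4wk. The 6 together summed to 0.517 to 0.909 CPM in Control and 0.567 to 1.09 CPM in IDPN-4wk. These sums overlapped, whereas Myl3, the slow and ventricular essential light chain, had 0, 1 and 0 counts in Control and 2, 3 and 4 in IDPN-4wk. Among other products of fast fibres, creatine kinase (Ckm) had no count in any library, the skeletal actin Acta1 had 2, 5 and 0 counts in Control and 2, 0 and 0 in IDPN-4wk, and fast troponin T (Tnnt3) had 0, 2 and 4 against 0, 1 and 4. The fast troponin I gene Tnni2 had no count. Actn3, the alpha-actinin of fast fibres, had 2, 0 and 0 counts in Control and 5, 12 and 6 in IDPN-4wk, too few to be tested. Other fibre genes were present: Tnnc2, the fast troponin C, was at 10.9 ± 1.53 CPM in Control and 8.39 ± 2.75 in IDPN-4wk, and Casq1, the calsequestrin of fast fibres, was at 10.8 CPM and 8.51 CPM on average. The groups overlapped in both. The myogenic regulators Myod1, Myog, Myf5 and Myf6 together had no count in Control and at most 2 counts for any of them in an exposed library.

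**Figure D2:**
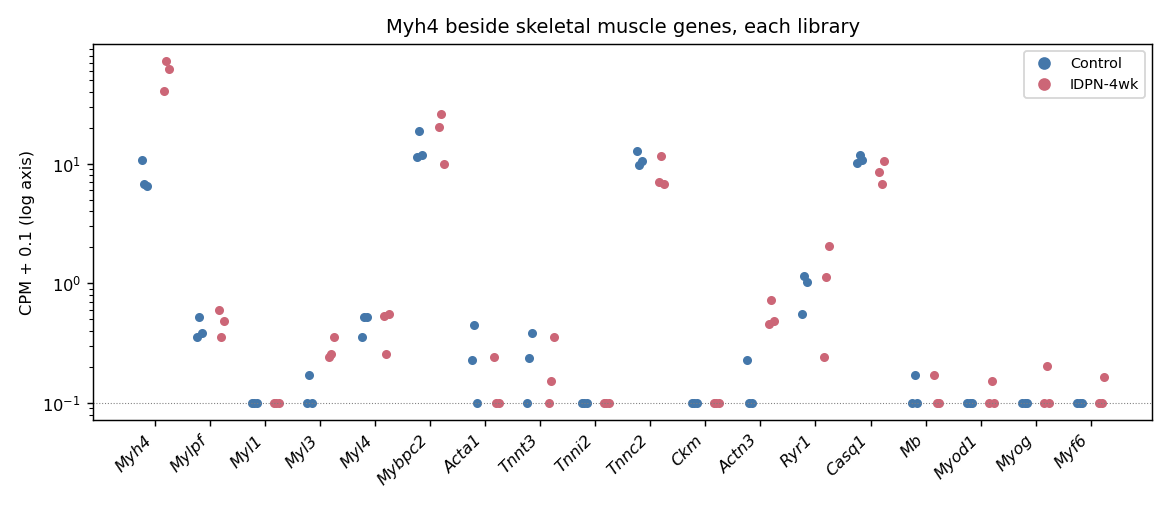
Myh4 and genes of skeletal muscle fibres by library; points are single rats of the Control and IDPN-4wk groups, on a log axis of CPM plus 0.1, so that the dotted line marks 0. Myh4 lies at 6.44 to 71.9 CPM over the 6 libraries, the light chains stay below 1 CPM in each, and Mybpc2, Tnnc2 and Casq1 are present with overlapping groups.

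Across 5 lists of sarcomere and muscle genes, 66 of 70 genes had a row and 32 were tested. Of these, 3 rose and 3 fell (18.8% called, against 9.71% of all tested genes), with a median log2-Fold change of -0.093 against 0.019 over all tested genes. With library size alone, a scaling that moved the median of all tested genes to 0.13, 5 rose and 2 fell.

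Among thick filament partners, 5 of 10 genes were tested and none passed both thresholds in edgeR or in DESeq2, with 1 at an unadjusted p under 0.05, as 33.1% of all tested genes were. That gene was Mybpc1, the slow isoform of myosin binding protein C and the gene of highest CPM on the list. Its level was 46.7 ± 6.81 in Control and 32.9 ± 1.29 CPM in IDPN-4wk (SD, n = 3 each), a log2-Fold change of -0.51 that stayed under the fold threshold (edgeR Benjamini-Hochberg adjusted p = 0.0102). Mybpc2, the fast isoform, was at 13.9 ± 4.24 and 18.6 ± 8.16 CPM, and its groups overlapped; without IDPN-4wk 3 it was called higher (log2-Fold change 0.72, edgeR adjusted p = 0.0428).

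Among genes of the thin filament and troponin, 11 of 18 were tested, 2 rose and 1 fell. Tnnt2, the cardiac troponin T, rose from 4.39, 2.73 and 2.90 CPM to 8.48, 12.5 and 6.89 CPM, with a log2-Fold change of 1.48 and a standard error of 0.28 (edgeR Benjamini-Hochberg adjusted p = 0.00458). Tpm2, beta tropomyosin, rose from 5.04, 7.48 and 5.45 CPM to 10.8, 12.2 and 12.9 CPM, with a log2-Fold change of 1.00 and a standard error of 0.19 (edgeR adjusted p = 0.00504). In both genes every exposed rat stood above every Control rat. Nebl, the nebulin relative nebulette, fell from 114 ± 7.79 to 71.3 ± 0.174 CPM (log2-Fold change -0.68, edgeR adjusted p = 1.74e-04). Tmod1, the tropomodulin that caps slow-growing actin ends, had the highest CPM of the list; it went from 601 ± 44.1 to 480 ± 38.1 CPM, with a log2-Fold change of -0.33 that did not reach the fold threshold (edgeR adjusted p = 0.0209). Tnnc1, the slow and cardiac troponin C (log2-Fold change 0.67, edgeR adjusted p = 0.0582), was called higher with upper quartile scaling, with library size alone and without IDPN-4wk 3, at 0.70 to 0.80, and Neb, nebulin (-1.13, edgeR adjusted p = 0.112), was called lower without Control 2, at -1.48.

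Among 20 further markers of skeletal fibres, 7 were tested, 1 rose and 2 fell, and 10 stayed under 1 CPM in every library. Des, the intermediate filament protein desmin, rose with a log2-Fold change of 0.69 and a standard error of 0.21 (edgeR Benjamini-Hochberg adjusted p = 0.0425), and Sln, the calcium pump inhibitor sarcolipin, fell with a log2-Fold change of -1.49 and a standard error of 0.44 (edgeR adjusted p = 0.0362); each lost its call in 5 of the 6 fits that left out a library. Smpx, the small muscle protein that hair cells also express, fell from 37.8 to 17.7 CPM on average, with a log2-Fold change of -1.09 (edgeR adjusted p = 4.11e-04). The summed list stood at 96.3 to 112 CPM in Control and 73.8 to 87.5 in IDPN-4wk, but without Smpx the sums overlapped, at 62.4 to 70.5 and 58.6 to 70.6 CPM.

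Of 16 myogenic regulators, 9 were tested and none passed both thresholds in edgeR or in DESeq2, with 2 at an unadjusted p under 0.05. Mef2d, a member of the MEF2 factor family, was at 19.7 ± 2.03 and 27.9 ± 3.80 CPM, a log2-Fold change of 0.51 that lay below the fold threshold (edgeR adjusted p = 0.0237) but passed it with library size alone (0.62) and without IDPN-4wk 1 (0.60).

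The nonmuscle chains Myh10 and Myh14 overlapped between the groups. CPM is not divided by transcript length, so levels are compared between libraries and not between genes. Myh14 (ENSRNOG00000020014) had 231, 214 and 242 in Control and 239, 240 and 229 CPM in IDPN-4wk. Its log2-Fold change was 0.043 with a standard error of 0.072. Myh10 (ENSRNOG00000002886) had 27.1, 31.3 and 30.3 in Control and 28.7, 31.9 and 26.0 CPM in IDPN-4wk. Its log2-Fold change was -0.033 with a standard error of 0.11, so for both chains the difference was smaller than its error.

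A pair of rows carried symbols of Myh9. The row called Myh9 (ENSRNOG00000004860) had 179, 251 and 1 counts in Control and 0 in every IDPN-4wk library. A second row, Myh9l1 (ENSRNOG00000049236), whose symbol RefSeq lists as a synonym of Myh9, had 3430, 3213 and 3134 counts in Control and 3662, 5318 and 3432 in IDPN-4wk. The Myh9 row thus held 4.96%, 7.25% and 0.0319% of the counts of both rows in Control and none in IDPN-4wk. The Control libraries disagreed among themselves by as much as the groups did, since Control 3 was at the level of the exposed rats. The row did not pass the filter on low counts. Without that filter, and in DESeq2, it counted as lower in IDPN-4wk, with fitted log2-Fold changes of -10.24 and -9.74 that depend on the handling of zeros and are no measure of size; the same call was made without Control 3 and without each IDPN-4wk library in turn.

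Added together, the Myh9 and Myh9l1 rows gave 233, 242 and 222 in Control and 263, 274 and 221 CPM in IDPN-4wk. The means were 232 ± 10.1 and 253 ± 28.2 CPM (SD, n = 3 each), and the groups overlapped. Fitted as a single row the log2-Fold change was 0.12 with a standard error of 0.089. The 3 nonmuscle members summed to 268 ± 4.84 in Control and 265 ± 8.81 CPM in IDPN-4wk, and with Myh9l1 added to 491 ± 3.31 and 517 ± 37.0 CPM (SD, n = 3 each). The sum of all members was 278 ± 6.28 CPM in Control and 325 ± 18.8 in IDPN-4wk (SD, n = 3 each).

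**Figure D3:**
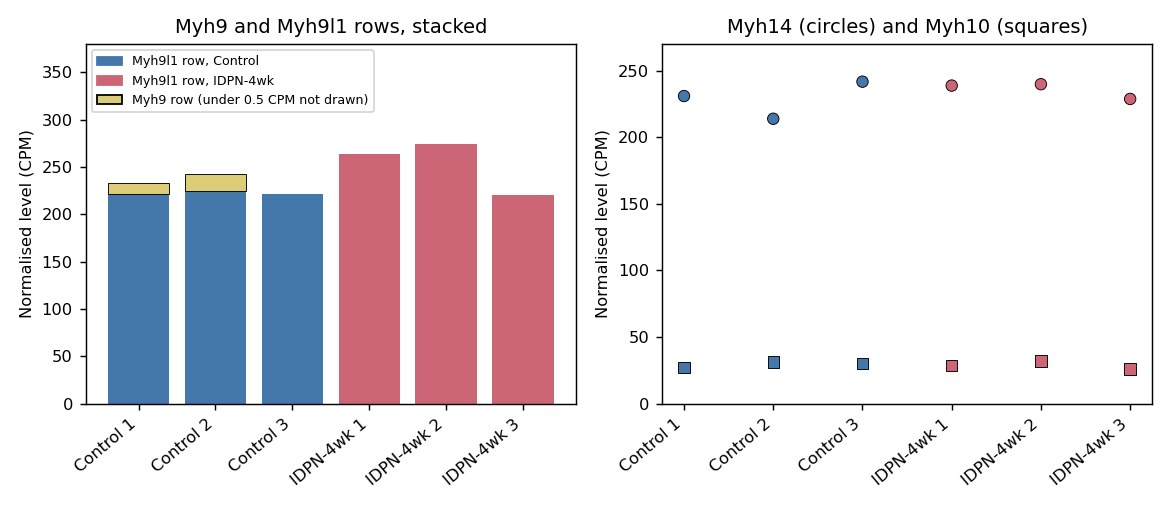
Levels of the nonmuscle heavy chains in each of the 6 libraries, in CPM; on the left the Myh9 row (yellow) is stacked on the Myh9l1 row, on the right circles are Myh14 and squares Myh10. Myh14, Myh10 and the stacked height overlap between the groups, while the Myh9 row alone has 11.6, 17.5 and 0.0708 CPM in Control and 0 in IDPN-4wk.

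Nonmuscle myosin works with its own light chains and is switched by kinases and a phosphatase that act on them. The 3 lists of partners cover light chains, regulators and chaperones, some best known from striated muscle. Of their 35 genes, 34 had a row and 32 were tested. Of these, 2 rose and 1 fell (9.38% called, against 9.71% of all tested genes). Their median log2-Fold change was 0.20. The share called was close to that of the table as a whole.

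All 4 nonmuscle light chains with a row had a log2-Fold change above 0, between 0.13 and 0.26, and none passed the fold threshold in edgeR or in DESeq2, with 3 at an unadjusted p under 0.05 (33.1% of all tested genes). Myl6, the essential light chain, had the highest CPM and was at 202 ± 6.65 in Control and 222 ± 20.4 CPM in IDPN-4wk. Myl12b, a regulatory light chain, was at 160 ± 7.42 and 191 ± 14.1 CPM (edgeR Benjamini-Hochberg adjusted p = 0.0402). Summed, the 4 stood at 575 to 602 in Control and 628 to 721 CPM in IDPN-4wk, every exposed rat above every Control rat. Of single genes, 37.8% of all tested had groups without overlap, and Myl6 was not among them.

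Among 23 regulators of nonmuscle myosin, all tested, 2 rose and 1 fell. S100a4, a calcium-binding protein known to bind the tail of nonmuscle myosin IIA and to loosen its filaments, rose from 8.59, 6.92 and 8.07 CPM to 34.1, 21.1 and 23.2 CPM. Its log2-Fold change was 1.73 with a standard error of 0.19 (edgeR Benjamini-Hochberg adjusted p = 1.81e-04). The other two are myosin light chain kinases best known from striated muscle and were low: Mylk3 rose from 0.571 to 1.79 CPM on average (edgeR adjusted p = 0.0273), and Mylk4 fell from 1.97 to 0.707 CPM (edgeR adjusted p = 0.0218). Mylk3 lost its call in 4 and Mylk4 in 5 of the 6 fits without a library. Cald1, the actin-binding protein caldesmon, had the highest CPM and was at 618 ± 52.0 and 600 ± 53.8 CPM. Rhob, a small GTPase, and Ppp1cb, the catalytic subunit of the myosin phosphatase, had log2-Fold changes of 0.52 and 0.47 (edgeR adjusted p = 0.00234 and 8.48e-04), under the fold threshold; Rhob passed it with library size alone (0.63).

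Of 7 myosin chaperones, 5 were tested and none passed the thresholds in edgeR or in DESeq2, with 2 at an unadjusted p under 0.05. Unc45b, the myosin chaperone of striated muscle, had no count, whereas Unc45a, its counterpart in other cells, had a log2-Fold change of 0.23 (edgeR adjusted p = 0.0308). Hsp90ab1, a cytosolic HSP90 chaperone with the highest CPM of the list, was at 3082 in Control and 3165 CPM in IDPN-4wk on average.

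**Figure D4:**
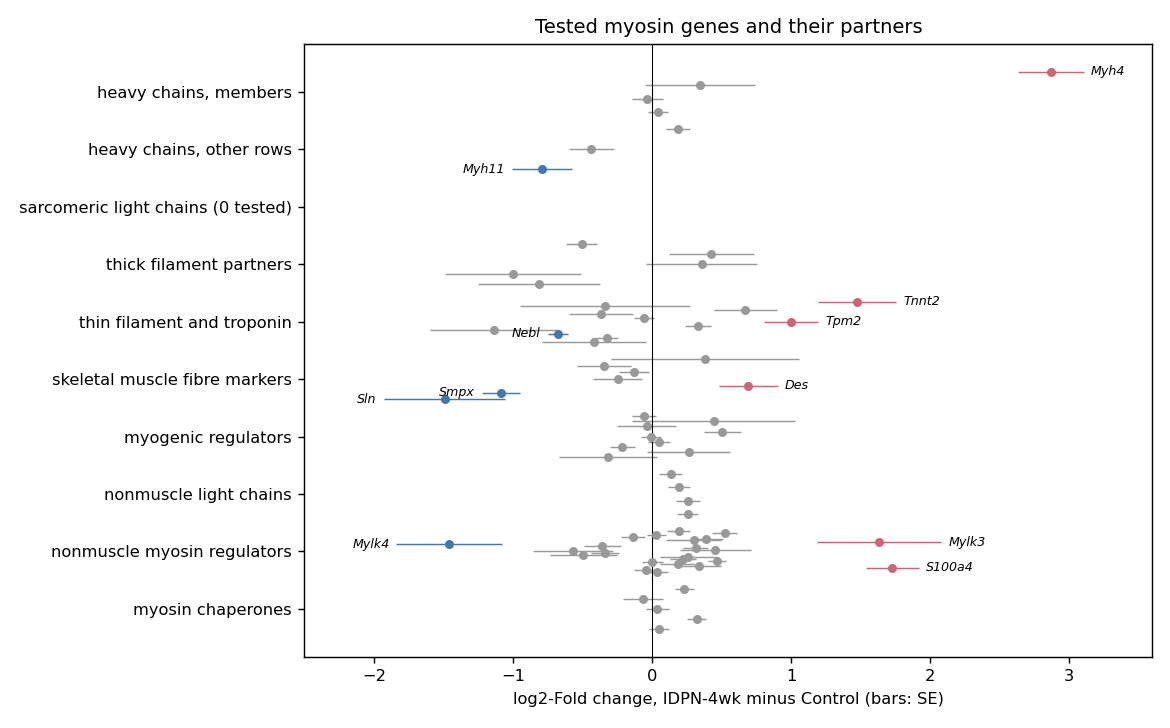
Log2-Fold change (IDPN-4wk minus Control) of every tested heavy chain and partner gene, by list; points are fitted values, bars their standard errors, and named points passed both thresholds. Myh4 lies at 2.87. Among the sarcomere and muscle lists the highest value is Tnnt2 at 1.48, and among partners of nonmuscle myosin it is S100a4 at 1.73.

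Among conventional heavy chains beyond the 10, Myh11, the chain of smooth muscle, fell from 6.52, 7.62 and 6.02 CPM to 3.38, 3.92 and 4.31 CPM. Its log2-Fold change was -0.79 with a standard error of 0.22 (edgeR Benjamini-Hochberg adjusted p = 0.0273). The call was lost without Control 1, Control 2, IDPN-4wk 1 or IDPN-4wk 2, with adjusted p up to 0.0990. Myh7b, an ancient slow-type chain of muscle and sensory tissue, was at 13.4, 13.9 and 13.6 in Control and 8.41, 9.90 and 11.8 CPM in IDPN-4wk, lower in all 3 exposed rats without passing the threshold (log2-Fold change -0.44, edgeR adjusted p = 0.0806). Myh15 had 1 count in all, and Myh13 had no row in the table used here. For Myh11 the sign was opposite to that of Myh4.

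Markers of other cells were read beside these values because muscle, vessel wall or nerve can cling to dissected tissue. Over the 5 marker lists, hair and supporting cells included, 41 genes were tested, of which 2 rose and 12 fell (34.1% called, against 9.71% of all tested genes). Of 9 smooth muscle markers, 6 were tested and 1 rose, Smtn (smoothelin, log2-Fold change 0.71, edgeR Benjamini-Hochberg adjusted p = 0.00265); the summed list stood at 102 to 128 CPM in Control and 146 to 156 in IDPN-4wk. Without Smtn the other 8 summed to 48.8 to 65.7 CPM in Control and 48.3 to 59.2 in IDPN-4wk. Acta2, smooth muscle actin, was at 2.20 and 1.79 CPM on average, and Tagln, transgelin, was at 15.4 ± 2.99 and 10.8 ± 1.97 CPM (SD, n = 3 each; log2-Fold change -0.52, edgeR adjusted p = 0.0737; called lower without IDPN-4wk 3, at -0.68). Of 8 fibroblast markers, 1 rose (Col1a1, a collagen chain, log2-Fold change 0.74) and 2 fell (Lum and Fn1, matrix proteins, -1.42 and -1.32), with sums of 950 to 1115 CPM in Control and 866 to 970 in IDPN-4wk; Pdgfra, a growth factor receptor with the highest CPM, was not called (-0.33). Of 8 Schwann cell markers, 1 fell (Pmp22, a myelin protein, -0.59). It was not called without Control 1, Control 3 or IDPN-4wk 2, at -0.50, -0.58 and -0.43. The list summed to 12994 to 16240 CPM in Control and 9506 to 12935 in IDPN-4wk. S100b, a calcium-binding protein with the highest CPM, was not called (-0.41). Mbp (-0.57) was called lower only without IDPN-4wk 3 (-0.79). Egr2 and Sox10, at 0.24 and 0.19, were the 2 with a log2-Fold change above 0. The part of these other cells in the Myh4 difference was not tested. The lists of skeletal muscle genes were mixed: the 6 light chains and 10 of the 18 fibre markers with a row stayed under 1 CPM in every library, Mybpc2, Tnnc2, Casq1 and Pygm (glycogen phosphorylase of muscle, 30.6 and 28.0 CPM on average) were present with overlapping groups. Of the 66 muscle genes with a row, 10 had groups without overlap with IDPN-4wk higher, namely Tnnt2, Tnnc1, Tpm2, Tpm3, Des, Mef2d and, with too few counts to be tested, Actn3, Myl3, Mybphl and Jsrp1. Another 7 had groups without overlap with IDPN-4wk lower, namely Mybpc1, Nebl, Tmod1, Smpx, Sln, Myom1 and Myom3. Among the tested muscle genes these were 13 of 32 (40.6%), close to the 37.8% of all tested genes. The part of muscle in the Myh4 difference was not tested either.

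Genes beside the cluster had smaller differences than Myh4. On the Myh3 side, Sco1, a mitochondrial copper chaperone, was at 18.2 ± 0.152 in Control and 23.4 ± 1.23 CPM in IDPN-4wk, a log2-Fold change of 0.36 under the fold threshold (edgeR Benjamini-Hochberg adjusted p = 0.0403). Adprm and Tmem220 had log2-Fold changes of 0.094 and -0.42, Pirt had no count and Tmem238l had no row in the table used here. On the other side, Gas7 was at 50.0 ± 3.36 and 60.5 ± 7.33 CPM (log2-Fold change 0.27, edgeR adjusted p = 0.0885), Rcvrn and Glp2r had 2 counts and 1 count in all, and Atp5mk-ps1 and Gsg1l2 had no row in the table used here. None of the 4 neighbours tested passed both thresholds in edgeR, with Sco1 at an adjusted p under 0.05.

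The profiles nearest to that of Myh4 over the 6 libraries were measured as the root mean square difference of log2 CPM after each gene was centred on its own mean. Rows with a provisional symbol, such as LOC or RGD, were left out of this ranking. Crtam, an adhesion receptor of lymphocytes, came closest at 0.405, with 16, 21 and 14 counts in Control and 77, 172 and 98 in IDPN-4wk. Next came Myoc, the secreted glycoprotein myocilin, at 0.450 (56, 12 and 17 against 130, 250 and 133 counts), and Fst, the activin antagonist follistatin, at 0.469 (9, 2 and 2 against 21, 60 and 19 counts). Krt7, an epithelial keratin, stood at 0.471 (42, 30 and 25 against 100, 286 and 117 counts) and Slc30a2, a zinc transporter, at 0.476 (no count in Control against 9, 14 and 28). In all 5, as in Myh4, the exposed libraries lay above the Control libraries, and in 4 of them IDPN-4wk 2 was the highest. A likeness of this kind over 6 libraries is a description that the group difference dominates.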

How the data were processed

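RNA of pooled utricles and cristae was made into SMART-seq2 libraries, primed with oligo-dT and not stranded. Per the submitters' processing notes, the authors aligned reads with STAR 2.5.3a and estimated gene counts with RSEM 1.3.0; the genome was Rnor6.0. The deposited values are expected counts per gene, here all whole numbers and not normalized.

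Counts were fitted over all 14352 genes passing filterByExpr (minimum count 10, minimum total 15) with edgeR 4.0.16 (quasi-likelihood, TMM, R 4.3.3), all 6 libraries, Control against IDPN-4wk, with Benjamini-Hochberg adjustment over all tested genes. A gene was called at adjusted p under 0.05 and fold change over 1.5. Standard errors are the absolute log2-Fold change divided by the square root of the quasi-likelihood F statistic. CPM are counts scaled for depth with TMM factors (0.955 to 1.05). Members and gene lists were chosen with earlier results of these data known, so member values carry no test. Named genes were the members, other conventional heavy chains, and per list the genes called (at most 6 by smallest p) plus the gene of highest CPM; the 5 profiles nearest to Myh4; and the 5 annotated neighbours on each side; 1 gene under this rule is not reported here. Other genes named with counts (Mybpc2, Mylpf, Ckm, Acta1, Tnnt3, Tnni2, Actn3, Tnnc1, Tnnc2, Neb, Tpm3, Casq1, Myl3, Mybphl, Myom1, Myom3, Jsrp1, Tagln, the myogenic factors, Mef2d, Myl12b, Rhob, Ppp1cb, Unc45a, Unc45b and Acta2) were chosen after their values were seen. Rows with a provisional symbol were left out of the nearest profiles, and LOC genes were left out of the neighbours. Scripts were tested on simulated counts. DESeq2 1.42.0, other scalings, no filter, adjusted p alone and leaving out each library were alternatives. The reads were placed on Rnor6.0 and the sequences printed are on GRCr8, so no other coordinate is given.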

Additional observations from a re-analysis of the deposited data

How the results depend on the processing

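The log2-Fold change of Myh4, the value for which it was chosen, ran from 2.68 to 3.15 over the scalings, filters, tools and omitted libraries, and was 2.60 with the sarcomeric rows summed; this is a description. The summed sarcomeric chains, 2.60 on the log2 scale, ran from 2.43 to 2.83 when each library was left out. The summed nonmuscle members, -0.019 on the log2 scale, were at 0.089 with library size alone, 0.074 with Myh9l1 added (an alternative chosen after seeing the data) and 0.014 with upper quartile scaling, and at -0.041 to -0.0044 without a library; library size alone moved the median of all tested genes to 0.13. Members called numbered 1, but 2 with no filter and 2 with DESeq2, the second being the Myh9 row, and 1 to 2 without a library. Muscle genes called numbered 6, but 10 by adjusted p alone and 4 to 7 without a library; nonmuscle partners 3, but 11 and 1 to 2; markers of other cells 14, but 23 and 13 to 17. Adjusted p alone calls more by its construction; the cause of the other shifts was not tested.

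Some genes not called changed sign: Myh10 reached 0.076 and Cald1 0.066 with library size alone. Without a library, Myh10 ran from -0.12 to 0.024, Myh14 from -0.0039 to 0.083, Cald1 from -0.11 to 0.013, Hsp90ab1 from -0.018 to 0.097, Tmem220 from -0.90 to 0.0049 and Adprm from -0.031 to 0.17. For the single genes named by the rule, 475 values kept direction and call, 34 lost the call and 10 changed sign. Besides the gained calls given above, the hair cell markers Espn (-0.60, without Control 1) and Myo6 (-0.62, without IDPN-4wk 3) were called lower. Dapk2, a regulator of nonmuscle myosin, was called lower without IDPN-4wk 1 (-0.87). Synpo2, a smooth muscle marker, was called higher with library size alone (0.59). Nebl and Myo7a lost the call with library size alone, and Pmp22 with that and with upper quartile scaling; Myo7a also lost it without Control 2 (-0.58), and Pmp22 without Control 1, Control 3 or IDPN-4wk 2. Over all genes, calls numbered 1394 (444 higher, 950 lower), 1542 (762 higher, 780 lower) with library size alone, and 1085 to 1581 without a library. The labels give no replicate numbers and state no pairing of Control with IDPN-4wk rats, so no paired analysis was run.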
